A study of Arabidopsis thaliana with 18 samples.

Results

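Flavonoids are made in plants from phenylalanine, and the genes described here encode 7 enzymes of that route and 3 transcription factors that control it. The 10 genes were taken by their locus identifiers out of the 27628 genes in the authors' deposited table, and all 10 were found. They are 5 early genes, CHS (AT5G13930), CHI (AT3G55120), F3H (AT3G51240), F3'H (AT5G07990) and FLS1 (AT5G08640), 2 late genes, DFR (AT5G42800) and LDOX (AT4G22880), and 3 regulators, PAP1 (AT1G56650), MYB12 (AT2G47460) and MYB111 (AT5G49330). The symbol column of the deposited table names these loci in the same way, except that it calls AT5G07990 TT7 and lists F3'H as a further alias of AT3G51240, so the locus identifiers were followed.

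The values come from ribosome profiling, which sequences the stretches of mRNA covered by ribosomes (footprints), and from RNA-seq of the same kind of tissue. Both were carried out on whole seedlings of Arabidopsis thaliana, grown under control conditions and harvested 9 days old at Zeitgeber time 5 h, in the mutants ceres-1 and ceres-2 and in Col-0, the wild type whose background the mutants share. There were 3 libraries per genotype and kind of library, 18 in all. CERES interacts with eIF4E, the translation initiation factor that holds the mRNA cap, and the comparison asks what its loss does to mRNA levels and to ribosome occupancy. The labels state neither the lesion of each allele nor the origin of the replicates, so the adjusted p-values measure only the spread between these libraries, which may be technical. For every gene the deposited table lists, by mutant, a log2 fold change over Col-0 with, where given, its adjusted p-value in each of RNA, footprints and efficiency (footprints relative to RNA). It holds no value per library and no level, so the depth is unknown, no SD can be given, and the tissue could not be checked against marker genes. CERES (AT4G23840) itself was 21.6-fold lower in ceres-1 RNA and 7.59-fold lower in ceres-2 RNA in the authors' deposited table (DESeq2 adjusted p = 5.62e-08 and 6.19e-05).

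Chalcone synthase (CHS) makes the first flavonoid skeleton, chalcone isomerase (CHI) closes its ring, and the hydroxylases F3H and F3'H add hydroxyl groups, after which the route forks. Flavonol synthase (FLS1) leads to flavonols, the colourless sunscreens of seedlings, while dihydroflavonol reductase (DFR) and leucoanthocyanidin dioxygenase (LDOX) lead to the red and purple anthocyanins. In Arabidopsis MYB12 and MYB111, with their relative MYB11, switch on the early genes without needing a bHLH partner, whereas PAP1 acts in a complex with a bHLH protein and TTG1 and switches on mainly the late genes. Light, sugar, cold and nitrogen shortage are the classic inducers of the pathway.

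The promoters of 3 genes are shown because they hold a G-box, the letters CACGTG, a palindrome recognised by light-signalling bZIP and bHLH factors. CHS and DFR were also shown for their footprint values. These are the lowest of the enzymes with an adjusted p in ceres-1 and, with their order exchanged, in ceres-2. MYB12 has no footprint adjusted p in either allele. A link between G-box and footprint value was not tested. Each is the 300 bases before the annotated gene start in the RefSeq assembly TAIR10.1, read 5′ to 3′ in the direction of the gene, with the G-box in capitals. CHS lies on the plus strand with its promoter at chr5:4488176-4488475, DFR on the minus strand at chr5:17166033-17166332 and MYB12 on the plus strand at chr2:19476026-19476325. These positions belong to that assembly alone, since the deposited table gives no coordinates and no source used here names the build of the alignment.
CHS: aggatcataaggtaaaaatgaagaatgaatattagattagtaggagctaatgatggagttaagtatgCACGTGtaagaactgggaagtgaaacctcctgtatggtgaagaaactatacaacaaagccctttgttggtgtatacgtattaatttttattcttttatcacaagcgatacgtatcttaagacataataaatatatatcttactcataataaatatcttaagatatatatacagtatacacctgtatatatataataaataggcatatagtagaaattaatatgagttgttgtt
DFR: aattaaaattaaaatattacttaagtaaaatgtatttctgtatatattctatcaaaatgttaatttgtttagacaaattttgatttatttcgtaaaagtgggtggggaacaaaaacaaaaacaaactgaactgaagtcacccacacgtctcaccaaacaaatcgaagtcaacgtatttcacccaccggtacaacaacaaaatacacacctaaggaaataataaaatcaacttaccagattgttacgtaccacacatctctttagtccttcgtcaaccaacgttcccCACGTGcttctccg
MYB12: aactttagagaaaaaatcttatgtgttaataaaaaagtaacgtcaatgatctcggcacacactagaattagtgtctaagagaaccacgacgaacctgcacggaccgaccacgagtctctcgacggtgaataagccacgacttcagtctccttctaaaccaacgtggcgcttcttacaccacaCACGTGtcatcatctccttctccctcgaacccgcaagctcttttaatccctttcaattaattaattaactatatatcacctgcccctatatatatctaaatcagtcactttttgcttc
A G-box stood in 4 of the 10 windows, those of CHS, F3H, DFR and MYB12, and in 7.08% of the 27419 windows read for genes of the table. The F3H window overlaps the record of another gene, AT3G51238, and is not shown. Footprint values of F3H were -0.28 in ceres-1 and -0.0090 in ceres-2, neither called. In the CHS window the G-box spans bases 233 to 228 before the gene start, in DFR bases 14 to 9 and in MYB12 bases 118 to 113. The core ACGT, which every G-box contains, was present in 6 of the 10 windows (CHS, F3H, DFR, LDOX, MYB12 and MYB111) and in 48.9% of all windows. None of the AC elements that R2R3-MYB factors bind (ACCTACC or its variants with the letters ACCTAAC and with the letters ACCAACC) was found on either strand of the 10 windows, and at least 1 of them was found in 7.17% of all windows. These matches are descriptions of letters in a window of fixed length and say nothing about binding.

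In ribosome footprints, CHS was the member that passed the authors' test, and it fell in ceres-1. The authors' deposited table puts its footprints at a log2 fold change of -0.64 in ceres-1, a 1.56-fold lower value than in Col-0 (DESeq2 adjusted p = 0.0168), and at -0.22 in ceres-2 (adjusted p = 0.558). A gene is called here when this adjusted p is below 0.05. By that rule 1 of the 6 members with an adjusted p was called in ceres-1 and 0 of the 8 with one in ceres-2. Over the whole table, 0.642% of 9967 tested genes were called in ceres-1 footprints (0.291% as lower, 0.351% as higher) and 1.88% of 14453 in ceres-2 (1.15% as lower, 0.733% as higher). Of the genes tested in ceres-1 footprints, 0.431% had a lower fold change than CHS. Whether CHS differs between the alleles was not tested, because the deposited table holds no such contrast.

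In RNA none of the 10 members was called by the authors' DESeq2 test in either allele. All 10 shared an adjusted p of 0.9998 for ceres-1 and one of 0.9999 for ceres-2, which are the most common values in the authors' deposited table. Calls were rare in RNA altogether, with 0.0249% of 24142 tested genes in ceres-1 and 0.137% of 19000 in ceres-2, and unadjusted p-values are not in the table. A p this close to its upper limit does not show that the RNA levels were equal. In whole seedlings a lower RNA value can mean fewer cells that express the gene or less of its RNA per cell, and these cannot be told apart.

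**Figure D1:**
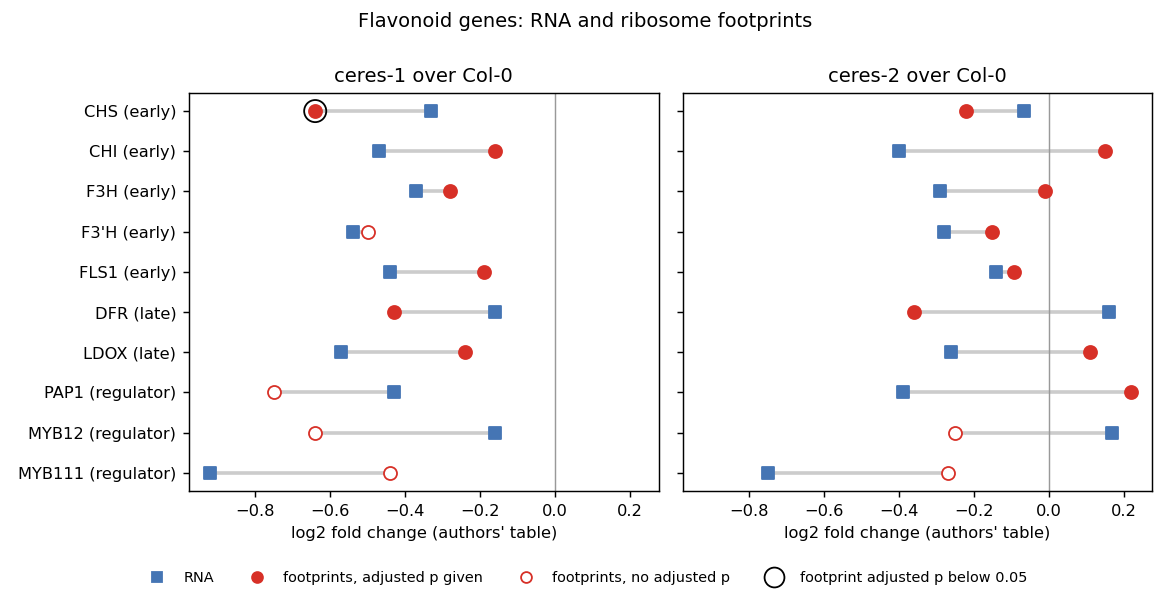
Log2 fold changes over Col-0 in RNA (squares) and footprints (circles) of the 10 flavonoid genes, with ceres-1 on the left and ceres-2 on the right, values from the authors' table. Open circles have no footprint adjusted p, and the ring marks CHS in ceres-1, the point with a footprint adjusted p below 0.05. In ceres-1 all squares and circles lie left of 0, and in ceres-2 several lie to its right.

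The RNA values of the early genes lay below 0 in each comparison. In ceres-1 the authors' deposited table gives -0.33 for CHS, -0.47 for CHI, -0.37 for F3H, -0.54 for F3'H and -0.44 for FLS1, a median of -0.44 on the log2 scale. In ceres-2 it gives -0.067 for CHS, -0.40 for CHI, -0.29 for F3H, -0.28 for F3'H and -0.14 for FLS1, a median of -0.28. The largest of these early RNA differences, F3'H in ceres-1, corresponds to a 1.45-fold lower value, and the smallest, CHS in ceres-2, to a 1.05-fold lower one. The 2 mutants were compared with the same Col-0 libraries, so their values are not independent of each other.

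Footprints of the early genes other than CHS lay nearer to 0. For CHI the authors' deposited table gives footprint values of -0.16 in ceres-1 and 0.15 in ceres-2 (adjusted p = 0.857 and 0.911), beside RNA values of -0.47 and -0.40. For F3H, the hydroxylase that feeds both branches, it gives -0.28 and -0.0090 (adjusted p = 0.583 and 0.994). FLS1, at the flavonol branch, had -0.19 in the ceres-1 and -0.092 in the ceres-2 column of the authors' deposited table (adjusted p = 0.873 and 0.962). F3'H, the cytochrome P450 that sets the ratio of quercetin to kaempferol, stood at -0.50 in ceres-1, with no adjusted p, and at -0.15 in ceres-2 (adjusted p = 0.945), again in the deposited table. In footprints the 5 early genes had medians of -0.28 (ceres-1) and -0.092 (ceres-2). CHS thus had the lowest footprint value of the early genes in both comparisons, while its RNA value was the nearest to 0 of the early genes in both.

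The late genes DFR and LDOX did not follow a common pattern. DFR had RNA values of -0.16 in ceres-1 and 0.16 in ceres-2, and footprint values of -0.43 and -0.36, in the authors' deposited table (footprint adjusted p = 0.203 and 0.164). It had the lowest footprint value of all 10 members in ceres-2 and the second lowest of the enzymes with an adjusted p in ceres-1. LDOX, the next enzyme on the anthocyanin branch, went the other way between the layers, with RNA values of -0.57 in ceres-1 and -0.26 in ceres-2 and footprint values of -0.24 and 0.11 in the authors' deposited table (footprint adjusted p = 0.731 and 0.939). Neither gene was called. Among all genes tested in footprints, 2.32% lay below DFR in ceres-1 and 6.67% in ceres-2, whereas 11.2% and 70.0% lay below LDOX.

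Among the regulators MYB111, an activator of flavonol synthesis, had the lowest RNA values of all members. The authors' deposited table puts them at -0.92 for ceres-1 and -0.75 for ceres-2, 1.89-fold and 1.68-fold lower than in Col-0, and neither was called. Of the genes tested in RNA, 4.03% of 24142 lay below MYB111 in ceres-1 and 0.979% of 19000 in ceres-2. In ceres-1 every gene with an RNA fold change had an adjusted p, and in ceres-2 19000 of 24100 did. These 2 shares are therefore not directly comparable. MYB12, which acts on the same early genes, stood at -0.16 in ceres-1 and 0.17 in ceres-2 in RNA, and PAP1, the activator of the anthocyanin branch, at -0.43 and -0.39, all in the authors' deposited table. In footprints the deposited table lists -0.44 and -0.27 for MYB111, -0.64 and -0.25 for MYB12, and -0.75 and 0.22 for PAP1. Of these 6 footprint values only that of PAP1 in ceres-2 has an adjusted p (0.947), so the footprints of the regulators went largely untested.

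**Figure D2:**
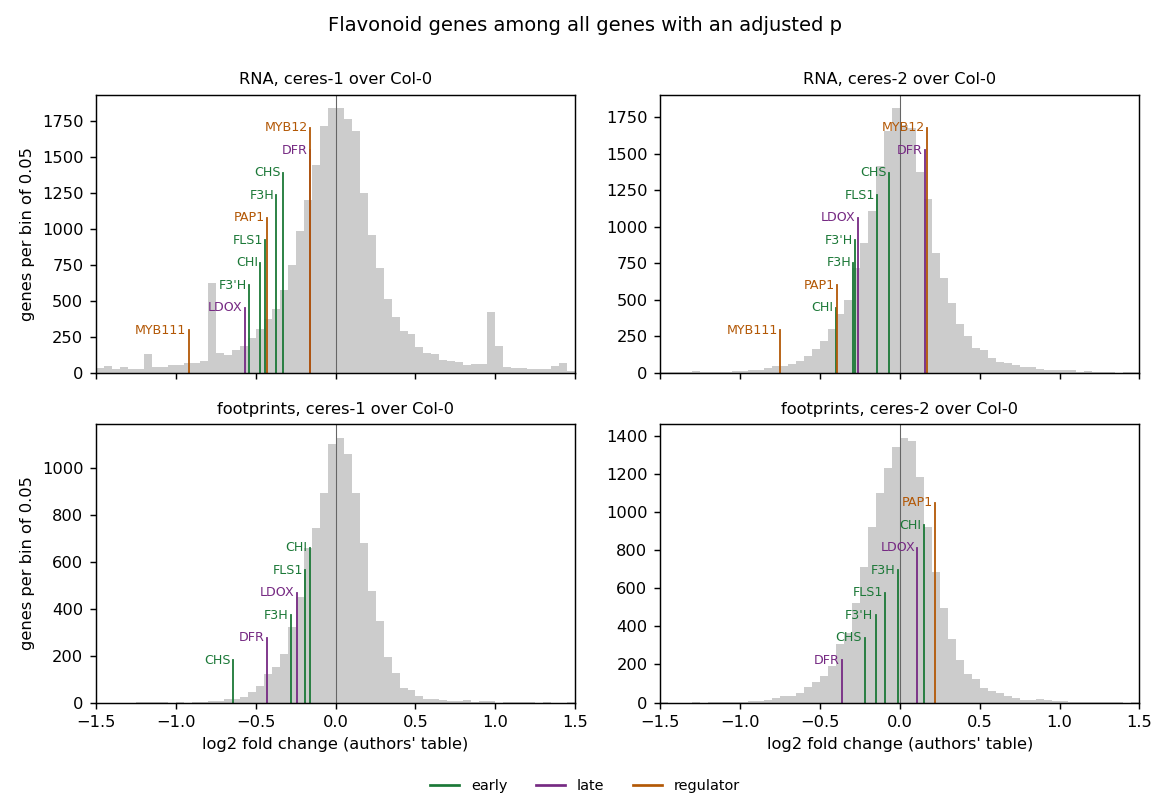
Number of genes per bin of 0.05 in log2 fold change over Col-0 (grey), for all genes with an adjusted p in RNA (top) and footprints (bottom) of ceres-1 (left) and ceres-2 (right), with a line for each member that has an adjusted p there; line heights serve the labels only. In ceres-1 the members stand in the left part of both distributions, with CHS far out in footprints. The bars of 622 and 421 genes that rise above their neighbours in ceres-1 RNA, in the bins that start at -0.80 and 0.95, hold none of the members, and 841 genes lie outside the axis in that panel.

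Over all 10 members the values in ceres-1 lay lower than those in ceres-2, a difference that could not be tested. In RNA, 10 of 10 members had a value below 0 in ceres-1 and 8 of 10 in ceres-2, with medians of -0.44 and -0.27. Across all genes with a fold change, 50.7% and 50.9% lay below 0, with medians of -0.0041 and -0.0062. Ranks among the genes tested in RNA, whose sets differ between the alleles, did not all follow this order. By rank CHI, F3H, PAP1 and MYB111 stood lower in ceres-2, and the other members stood lower in ceres-1. In footprints, 10 of 10 members lay below 0 in ceres-1 and 7 of 10 in ceres-2, with medians of -0.44 and -0.12, where 49.6% and 50.3% of all genes did so, with medians of 0.0024 and -0.0021. With the members that have a footprint adjusted p alone, the medians were -0.26 in ceres-1 (6 genes) and -0.051 in ceres-2 (8 genes), since the regulators then largely drop out. These counts describe the list and are no test of it.

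The footprint change relative to the RNA change was negative in both alleles for CHS, DFR and MYB12 alone among the members. Taking footprint minus RNA on the log2 scale, CHS had -0.31 in ceres-1 and -0.15 in ceres-2, DFR -0.27 and -0.52, and MYB12 -0.48 and -0.42, from the authors' deposited table. It was positive in both alleles for CHI (0.31 and 0.56), LDOX (0.33 and 0.37), F3H (0.086 and 0.28), FLS1 (0.25 and 0.047), F3'H (0.043 and 0.13) and MYB111 (0.48 and 0.48). PAP1 stood at -0.31 in ceres-1 and 0.61 in ceres-2. These differences carry no test of their own, and MYB12 has no footprint adjusted p in either allele. Below 0 lay 4 of 10 members in ceres-1 and 3 of 10 in ceres-2. Of all genes with both values, 11312 of 22933 did so in ceres-1 and 11456 of 22891 in ceres-2. The authors' efficiency columns give an adjusted p for 6 members in ceres-1 and 7 in ceres-2, none of them called, the lowest being 0.707 for CHS and 0.705 for DFR. Of all genes tested in efficiency, 0.107% of 12120 were called in ceres-1 and 0.0410% of 12188 in ceres-2.

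The fold change columns headed as efficiency were not used for these sizes, because they follow the footprint columns, and their adjusted p may not test the footprint minus RNA difference. Their median absolute gap to the footprint fold change was 0.00860 (ceres-1) and 0.00916 (ceres-2) over all genes with a value, against 0.122 and 0.124 to the footprint minus RNA difference. For the members the gap to the footprint value was at most 0.0290 in ceres-1 and 0.0261 in ceres-2. The choice decides the sign for 4 of 6 members in ceres-1 and 3 of 7 in ceres-2. For CHI in ceres-1, the authors' efficiency column reads -0.17 where the footprint minus RNA difference is 0.31.

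**Figure D3:**
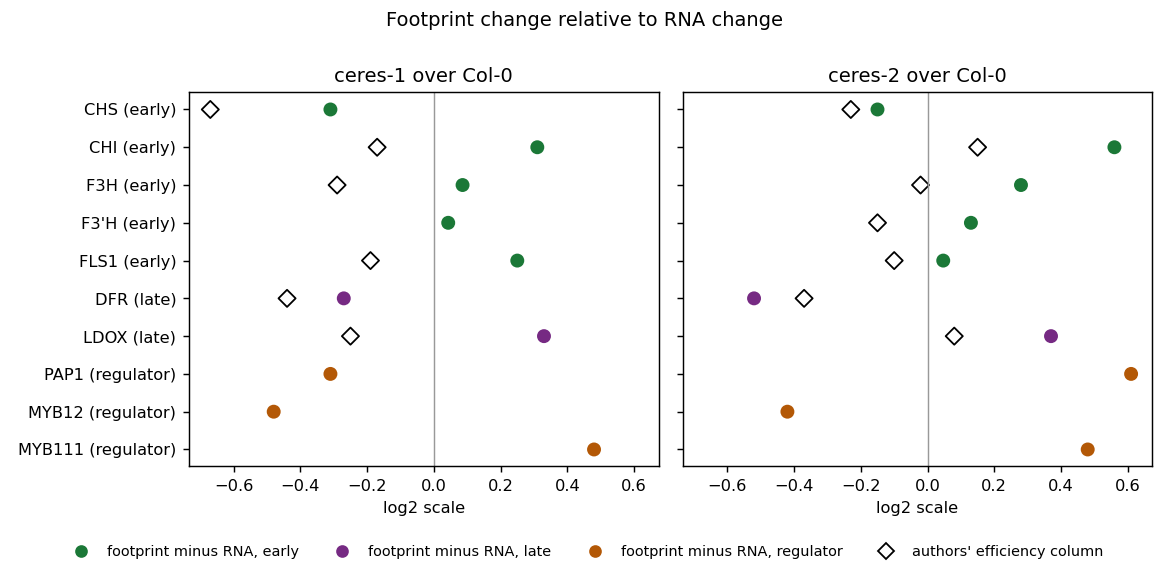
Footprint minus RNA log2 fold change of each member (filled circles, coloured by role) and the authors' efficiency fold change column (open diamonds, where given), for ceres-1 on the left and ceres-2 on the right. The circles of CHS, DFR and MYB12 lie left of 0 in both panels. The diamonds follow the footprint values, which are not drawn here, and differ from the circles to a varying extent.

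Around these 10 genes, a list of 51 further genes of the pathway was followed, by role. In RNA 0 were called by the authors' test, among 49 with an adjusted p in ceres-1 and 44 in ceres-2, and in efficiency 0 among 35 in each. In footprints 2 were called higher and 0 lower in ceres-1, among 32 with an adjusted p, and 4 were called higher and 0 lower in ceres-2, among 39. All of these calls fell on repressors of the pathway, which made up 11 of the 51 genes. The background for calls in the higher direction is the 0.351% and 0.733% of tested genes given above. This list was chosen with earlier results of these data known. Where the calls fell on it is therefore a description and no evidence about repressors as a class.

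MYBL2 (AT1G71030), a single-repeat MYB protein that represses DFR and other anthocyanin genes, rose in the footprints of both mutants. The authors' deposited table gives 0.61 in ceres-1 and 0.60 in ceres-2, 1.53-fold and 1.52-fold higher than in Col-0 (DESeq2 adjusted p = 0.0131 and 1.19e-05). Its RNA values were 0.25 and 0.33, not called. KFB50 (AT3G59940), a Kelch-repeat F-box protein that marks phenylalanine ammonia-lyase for degradation, rose as well. Its footprint values in the authors' deposited table were 0.61 in ceres-1 and 0.69 in ceres-2 (DESeq2 adjusted p = 0.0342 and 1.08e-08), with RNA values of 0.33 and 0.38.

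KFB-CHS (AT1G23390), the F-box protein that targets chalcone synthase itself for degradation, rose in ceres-2 footprints by 0.81 on the log2 scale, a 1.76-fold higher value, in the authors' deposited table (adjusted p = 5.03e-07). In ceres-1 it stood at 0.54 with an adjusted p of 0.0554, just outside the threshold. KFB20 (AT1G80440), which acts on phenylalanine ammonia-lyase like KFB50, rose in ceres-2 by 0.98, a 1.97-fold higher value (adjusted p = 9.69e-11), and stood at 0.54 in ceres-1 (adjusted p = 0.0624) in the same table. RNA values in the authors' deposited table were 0.36 and 0.46 for KFB-CHS and 0.30 and 0.61 for KFB20, none of them called. Between 98.6% and 99.7% of the genes tested in footprints lay below each of MYBL2, KFB50, KFB-CHS and KFB20, over both comparisons. These 4 genes were named for calls on the same footprint values, so the ranks add no support to the calls. Both comparisons also share the Col-0 libraries. The footprint minus RNA difference of the 4 genes lay between 0.17 and 0.37, and 0 of them were called in the authors' efficiency columns. Such a difference was above 0 for 8 of the 11 repressors in ceres-1 and 9 of 11 in ceres-2. On the whole list it was above 0 for 34 of 47 and 32 of 49 genes with both values. Over all genes with both values the counts were 11621 of 22933 and 11435 of 22891.

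The other 7 repressors were not called in footprints. LBD37 (AT5G67420) and LBD39 (AT4G37540), nitrate-induced repressors of anthocyanin genes, had 0.17 and 0.32 for ceres-1 and 0.34 and 0.35 for ceres-2 by the authors' deposited table. KFB01 (AT1G15670), a relative of KFB20 and KFB50, had -0.044 in the ceres-1 and -0.081 in the ceres-2 column of the deposited table (adjusted p = 0.988 and 0.966). CPC, SPL9 and MYB4 lacked a footprint adjusted p in ceres-1, and CPC and SPL9 also in ceres-2. Over the 11 repressors the median footprint value was 0.17 (ceres-1) and 0.34 (ceres-2), and the median RNA value 0.0014 and 0.13.

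**Figure D4:**
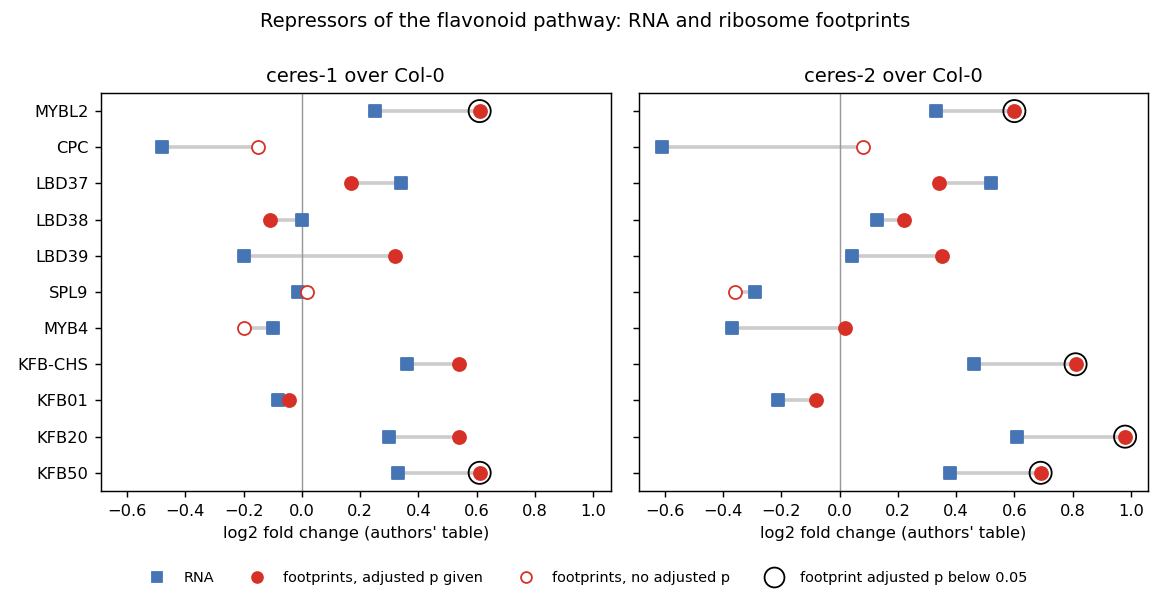
Log2 fold changes over Col-0 in RNA (squares) and footprints (circles) of the 11 repressors, drawn as in the plot of the members, with ceres-1 on the left and ceres-2 on the right. Rings mark a footprint adjusted p below 0.05, reached by MYBL2 and KFB50 in ceres-1 and by MYBL2, KFB-CHS, KFB20 and KFB50 in ceres-2. For each of these genes the footprint value lies to the right of the RNA value, as it does for most of the 11 repressors. The rings were set by the footprint values, so this is no evidence about the ringed genes.

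Upstream and downstream of the members no gene was called. The 8 genes of general phenylpropanoid metabolism, which supply the precursor, had median footprint values of -0.012 in ceres-1 and -0.030 in ceres-2 and median RNA values of -0.040 and -0.078. Among them the ligase 4CL3 (AT1G65060) stood at -0.27 and -0.092 and the ammonia-lyase PAL3 (AT5G04230) at -0.17 and -0.071 in footprints of the authors' deposited table. CHIL (AT5G05270), a non-catalytic partner of the pathway related to CHI, was at -0.17 and 0.066 in footprints and at -0.33 and -0.25 in RNA there. The 10 genes that decorate flavonoids with sugars and acyl or methyl groups had median RNA values of -0.34 in ceres-1 and -0.12 in ceres-2, and median footprint values of -0.13 and -0.16. The anthocyanin glucosyltransferase UGT75C1 (AT4G14090) stood at -0.66 and -0.050 in RNA and at -0.53 and -0.069 in footprints in the authors' deposited table (footprint adjusted p = 0.363 and 0.973). The flavonol rhamnosyltransferase UGT78D1 (AT1G30530) was at -0.11 and -0.32 in footprints of the same table (adjusted p = 0.930 and 0.308).

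TT19 (AT5G17220), a glutathione transferase needed to bring anthocyanins to the vacuole, had footprint values of -0.0088 for ceres-1 and 0.43 for ceres-2 by the authors' deposited table (adjusted p = 0.999 and 0.376). TTG1 (AT5G24520), the WD40 scaffold of the complex that holds PAP1, was at 0.041 and 0.056 in footprints of the deposited table. Of the 10 activators on the list, 1 had a footprint adjusted p in ceres-1 and 4 in ceres-2, so most could not be called in footprints. Activator RNA values ranged from -1.16 to 0.99 in ceres-1 (9 genes, median -0.054). In ceres-2 they ranged from -1.11 to 1.11 (8 genes, median -0.15). In the neighbouring branch to lignin and sinapate, the 6 genes had median footprint values of -0.0044 and -0.079. Within it the acyltransferase HCT (AT5G48930) stood at -0.19 and -0.29 (adjusted p = 0.747 and 0.177) and the dehydrogenase CAD5 (AT4G34230) at 0.21 and 0.14 in footprints of the authors' deposited table.

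**Figure D5:**
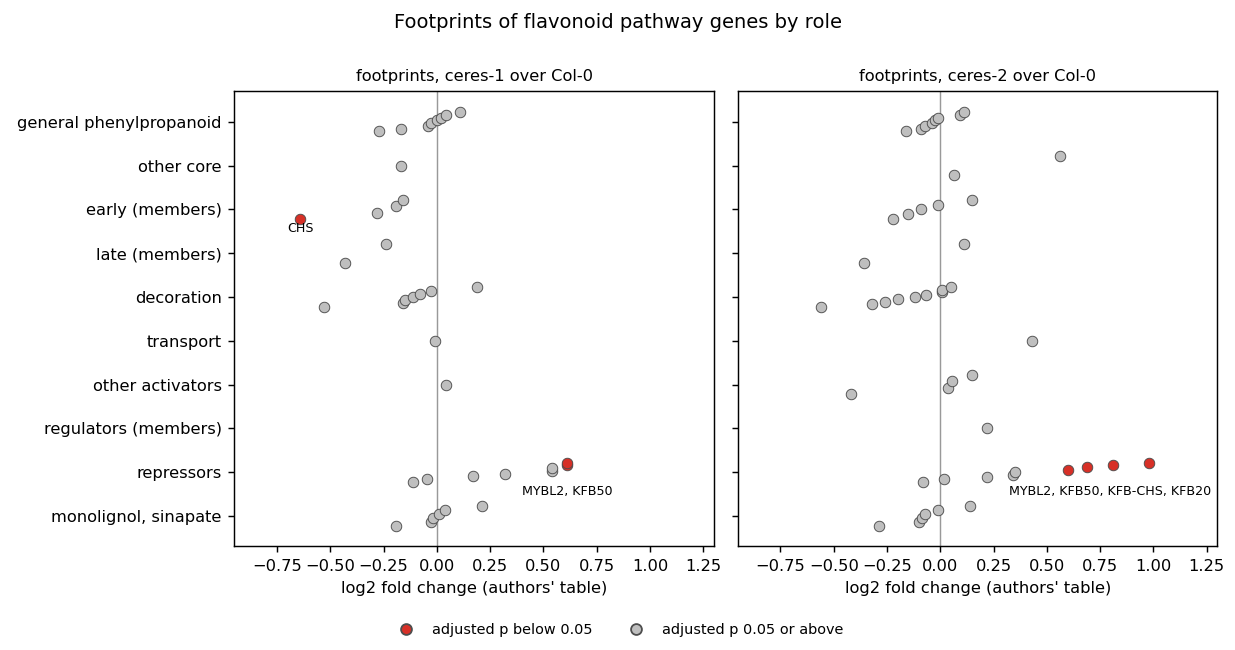
Footprint log2 fold change over Col-0 of each pathway gene with a footprint adjusted p, by role (rows), in ceres-1 on the left and ceres-2 on the right, with genes below an adjusted p of 0.05 in red and named. Red points stand left of 0 for CHS in ceres-1 and right of 0 among the repressors, and the row of member regulators is empty in ceres-1.

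The gene most like CHS over its 4 fold changes (RNA and footprints of both alleles) was CWLP (AT3G22120), a linker protein between cell wall and plasma membrane. It lay at a Euclidean distance of 0.0924 on the log2 scale, within a set of 9966 genes that includes CHS itself. It was followed by PIF4 (AT2G43010), a bHLH factor of light and temperature signalling, at 0.165, AT5G66770 at 0.171, and the expansin EXPB1 (AT2G20750) and the arabinogalactan protein FLA8 (AT2G45470), both at 0.179. By the authors' deposited table PIF4 fell in ceres-1 footprints, with -0.56 (DESeq2 adjusted p = 0.0256), and CWLP had -0.66 and was not called (adjusted p = 0.765). Of the 5 other members with a footprint adjusted p in both alleles, DFR was the nearest to CHS, with 116 of the 9966 genes nearer than it. For F3H 353 genes were nearer, for FLS1 396, for LDOX 1326 and for CHI 2893.

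Some values can hold reads of more than 1 gene, since no source used here states the strand setting of the counting. The reference annotation places an antisense gene record over 94.5% of F3H (AT3G51238) and another over 87.7% of KFB50 (AT3G09275), neither of them in the deposited table. CHS shares 2 bases with its antisense neighbour AT5G13940. KFB50 also shares 160 bases with a second antisense gene, AT3G59950. UGT75C1 shares 230 bases with the antisense AT4G14100 and TT19 108 with the antisense AT5G17230. These partners of KFB50, UGT75C1 and TT19 are in the deposited table. The part of such reads in the results was not tested. UGT78D2 and UGT78D3, FLS1 and FLS3, and MYB113 and MYB114 are pairs from the same gene families. Their sequence similarity was not measured, and whether reads of 1 gene of a pair were lost or counted for the other was not tested.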

How the data were processed

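Footprint and RNA libraries were grouped by genotype and kind from their labels; libraries not labelled as footprints were taken as RNA-seq. Alignment used TopHat2 2.1.0, featureCounts 1.6.2 did the counting, and DESeq2 is named for the comparisons, all per the submitters' processing notes; the kit was a ribosome profiling kit for mammalian samples, per the labels' protocols. Per the file headers, the authors computed log2 fold changes between genotypes, so replicates are already merged. The adjusted p-values were computed by the authors and deposited beside them, with gaps for part of the genes. Genome build, annotation release, shrinkage of fold changes and the tool behind the efficiency columns are named in no source used here.

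From this table of 12 value columns, calls (adjusted p below 0.05), medians, percentages of tested genes below a value, footprint minus RNA differences and distances to CHS were computed in Python 3.11.15 with pandas 2.3.3. The calls and the search for nearest genes were checked on simulated data, and the motif search on simulated sequences. No further test was run. The members and the pathway list were chosen with earlier results of these data known. Of 54 list genes, 3 (PAP2, CCR1, FAH1) were dropped because the reference gives their symbol to another locus, 42 matched by symbol and 9 had a symbol the reference lacks. Named from the list were all called genes and, per role, up to 2 uncalled genes with a footprint adjusted p in both alleles and the largest mean footprint change; 5 genes nearest to CHS were also named. Of 27628 identifiers, 27420 matched RefSeq TAIR10.1, from which promoters and overlapping records were read.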

Additional observations from a re-analysis of the deposited data

How the results depend on the processing

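No paired analysis was possible because single libraries have no values in the deposited table, and leaving out each replicate in turn was not run for the same reason. The members called in RNA and efficiency (0 in either allele) and in ceres-2 footprints (0) kept these counts with an adjusted p below 0.01 or 0.1 and with a minimum change of 1.5-fold; no tool other than the authors' was run. The call of CHS in ceres-1 footprints was lost at 0.01 (0 members) and held under the other settings. For the repressors, settings chosen after seeing the data gave 0 genes called higher in ceres-1 footprints at 0.01 and 4 at 0.1, against 2 at 0.05, while in ceres-2 the 4 calls stood in every setting. With the members that have an adjusted p alone, the footprint median became -0.26 (ceres-1) and -0.051 (ceres-2), and the median footprint minus RNA difference 0.17 against 0.064 in ceres-1 and 0.13 against 0.20 in ceres-2; fewer members enter. With the mean in place of the median the ceres-1 difference was 0.011. Subtracting the median of all tested genes moved no median by more than 1.5 times. Of the 5 genes nearest to CHS, 4 were also nearest by the largest single difference. With no counts or levels in the table, the depth behind each fold change is unknown, and 4 members in ceres-1 and 2 in ceres-2 have no footprint adjusted p.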
